A study of Mus musculus with 12 samples.

Results

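Wtap, Virma, Zc3h13, Rbm15 and Cbll1 encode regulatory subunits of the enzyme complex that writes N6-methyladenosine (m6A) inside mRNAs, and their own mRNAs carried m6A peaks in mouse embryonic stem cells. These 5 genes were taken from the 6097 genes with a listed peak by their names in the deposited tables, where Virma stands under the older symbol 1110037F02Rik. Mettl3 and Mettl14, the 2 other core subunits, had no listed peak in any table. The 5 genes held 33 entries in the 4 deposited tables, which come down to 24 peaks of knockdown libraries, 13 peaks of scramble libraries and 9 separate places in the mRNAs.

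In this complex Mettl3 is the catalytic subunit and Mettl14 its RNA-binding partner, and together they methylate adenosines in the GGAC core of a longer consensus. Wtap holds this pair in nuclear speckles. Virma (also called Kiaa1429) acts as a scaffold and is known for directing methylation toward the end of the coding sequence and the 3′ UTR. Zc3h13 links Wtap to the RNA-binding adaptor Rbm15 and keeps the complex in the nucleus, as described in mouse embryonic stem cells. Cbll1, also called Hakai, is a RING finger E3 ubiquitin ligase that is part of the same assembly.

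The cells were of the J1 mouse embryonic stem cell line, grown on irradiated fibroblast feeders with leukemia inhibiting factor. The groups were cells with an shRNA against Mettl14, cells with an shRNA against Mettl3 and cells with a scramble shRNA, all delivered by lentivirus and selected with puromycin as stable lines. Fragmented poly(A) RNA was pulled down with an anti-m6A antibody, which gave 2 immunoprecipitation (IP) libraries in each of 3 groups, and 6 further samples had no antibody. Each of the 4 deposited tables pairs 1 knockdown IP library with 1 scramble IP library. The tables form 2 sets, and within a set both knockdowns are set against the same scramble library. Nothing states that the 2 sets came from separate cultures, so the spread between them may be technical. The libraries are from bulk RNA, in which fewer cells with a transcript and less RNA per cell cannot be told apart. The knockdowns themselves were not checked here, because no expression level is in the tables. Of 8 pluripotency markers, Sox2, Klf4 and Esrrb had a listed peak, and of 8 feeder fibroblast markers, Thy1, Twist1 and Pdgfrb did. A gene without a listed peak may still be expressed. In the authors' deposited tables Klf4 was higher in all 4, with log2 changes of 0.70 to 1.37 at its shared peak. Esrrb was new in Mettl14 set 1 and Mettl3 set 2, and Sox2 was at 0.59 and 0.70 in set 1 and at -0.10 and -0.13 in set 2. Twist1 was lower in all 4 tables, at -0.14 in Mettl14 set 1 and lost in the other 3. Pdgfrb was lower in 3 tables and had a lost and a higher peak in Mettl3 set 1, while Thy1 was new in Mettl14 set 2. The part of these marker differences in the results was not tested.

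The sites below are shown because each holds the GGAC nearest to the summit of a listed peak, the base with the highest pile-up. Capitals mark GGAC, or GGACT where a T follows. They are read 5′ to 3′ on the gene's strand from the GENCODE M21 transcripts (mm10), as DNA letters.
Wtap short-isoform 3′ UTR, chr17:12974765-12974789, minus strand: ataagactgtGGACTtcatgattgt
Wtap last exon, chr17:12967789-12967812, minus strand: tcccgccagaGGACgtctgggtct
Virma exon 8, chr4:11513901-11513924, plus strand: agcctgaccaGGACacagatgctg
Virma short-isoform last exon, chr4:11527073-11527097, plus strand: cttcttctcaGGACTcatactcctt
Zc3h13 exon 9, chr14:75321853-75321877, plus strand: gatcacgaacGGACTtcacagtcac
Zc3h13 exon 15, knockdown summits, chr14:75331940-75331963, plus strand: acagagaccgGGACagaaggagag
Zc3h13 exon 15, scramble summit, chr14:75331838-75331861, plus strand: agcgggagagGGACcggagagatc
Rbm15 exon 1, chr3:107331684-107331707, minus strand: gggtggtctgGGACcctgggtgcc
Cbll1 last exon, chr12:31487577-31487600, minus strand: ccctccccctGGACatattattgc

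At Wtap, Cbll1 and Zc3h13 exon 15 summits lay close to the motif shown. In all 4 knockdown libraries the summit of the Wtap 3′ UTR peak lay 1 to 6 nt from the A of its GGACT. The Cbll1 summits of both Mettl14 libraries and of Mettl3 set 1 lay 3 to 11 nt from the A of the site above, and that of Mettl3 set 2 lay 81 nt away. In Zc3h13 exon 15 both Mettl14 summits lay 0 to 4 nt from the GGAC at position 75331952, and the scramble summit lay 14 nt from another GGAC, at position 75331850. The summit of the longest Rbm15 peak was the same base, 107331675, in 3 of 4 knockdown libraries, 20 nt from a GGAC. In Mettl3 set 2 the summit of the longest Rbm15 peak lay 61 nt from another GGAC. The shorter Rbm15 peaks called beside the longest had summits 46 to 114 nt from a GGAC. The Virma exon 8 summits stood at a different base in each knockdown library, from 8 to 98 nt from a GGAC.

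Over the 5 genes, 4 of 24 knockdown summits (16.7%) lay within 10 nt of the A of a GGACT, and these were the 4 Wtap summits of a single site. Among all 16344 knockdown summits on annotated transcripts the share was 6.72%. For the shorter GGAC, 9 of 24 (37.5%) lay within 10 nt, against 21% of all. Summits at one place in different libraries are not independent, so these shares describe the lists and carry no test. The letters were searched on the transcript strand only, and every GGACT is also a GGAC.

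**Figure D1:**
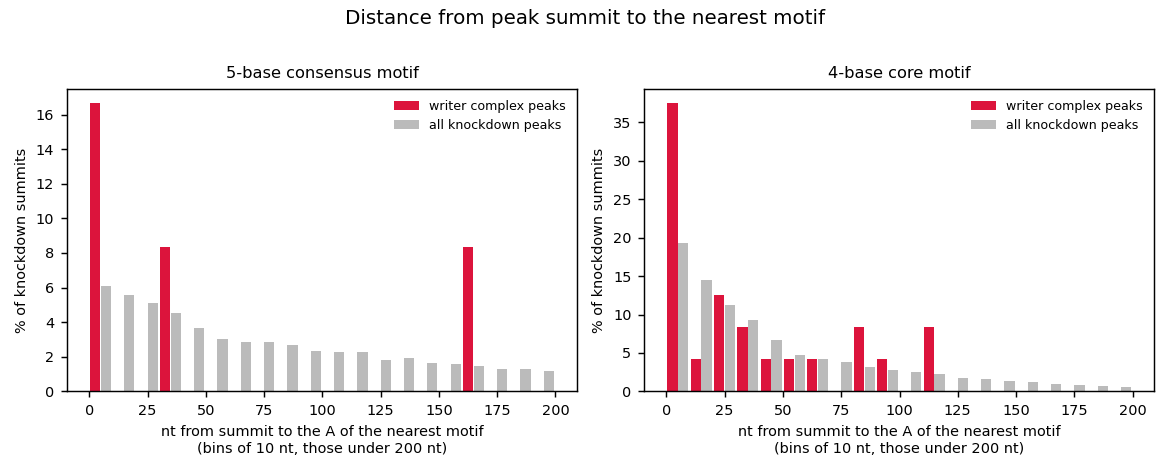
Distance in nt (x axis, bins of 10 nt, distances under 200 nt) from each knockdown peak's summit to the nearest GGACT (left panel, 5-base motif) or GGAC (right panel, 4-base motif), as a percentage of summits (y axis) for the 24 writer complex peaks in red and all 16344 knockdown peaks in grey. The red bar of the first bin holds the 4 Wtap summits on the left and 9 summits of several genes on the right.

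Over the scramble peaks, the shares with a motif were close to those of all genes. Within 200 nt at the centre of the peak, GGACT stood in 3 of 8 member peaks of set 1 and 2 of 5 of set 2, against 33.8% and 32.9% of all scramble peaks on annotated transcripts. GGAC stood in 6 of 8 and 4 of 5, against 76.2% and 75.5%. The Virma exon 8 and Cbll1 places held no GGACT at all but 5 and 3 GGAC, while the long Rbm15 place held 2 GGACT and 25 GGAC. An exon of at least 500 nt lay under 7 of 8 and 5 of 5 member peaks, against 93.8% and 94.6% of all, and the short one was exon 9 of Zc3h13.

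Each peak was called in 1 library against that library's own control. A scramble peak was lost where no knockdown peak overlapped it, a knockdown peak was new where no scramble peak overlapped it, and overlapping peaks were shared. With Mettl14 knockdown 2 of 8 scramble peaks of the 5 genes were lost in set 1 and 2 of 5 in set 2, where 43.3% and 45.9% of all scramble peaks were lost. With Mettl3 knockdown 3 of 8 and 2 of 5 were lost, where 45.4% and 41.9% of all were lost. New peaks numbered 0 of 7 and 2 of 5 with Mettl14 knockdown (all genes 18.9% and 31.0%) and 1 of 7 and 1 of 5 with Mettl3 knockdown (12.8% and 28.1%). The shares of the 5 genes rest on 5 to 8 peaks each. Those of lost peaks were near those of all genes or below them. Those of new peaks were above the share of all genes in Mettl14 set 2 and Mettl3 set 1, and below it in the other tables. The last exon of Wtap was lost in all 4 tables. It was 1 of 4 places of the 5 genes with overlapping scramble peaks in both sets. Of all 4591 such places, 19.1% were lost in both sets with Mettl14 knockdown, 18.3% with Mettl3 knockdown and 11.3% with both.

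**Figure D2:**
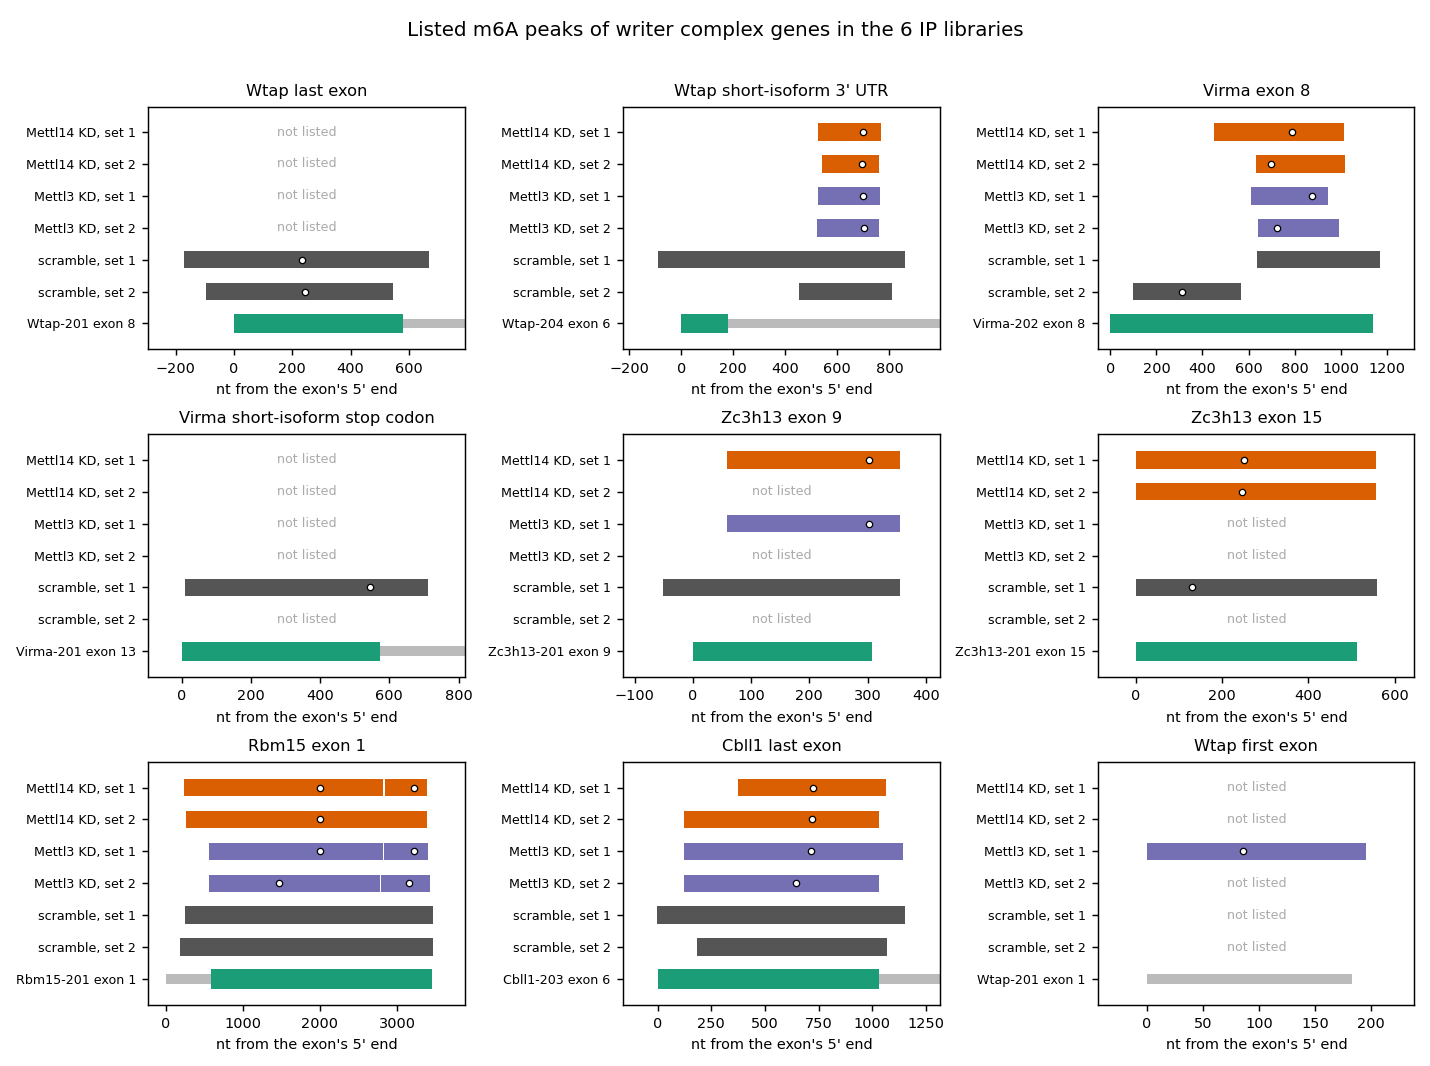
Listed peaks (bars) and their summits (white dots, where the tables give one) at the 9 places, in nt from the 5′ end of the exon named in each panel (x axis), for Mettl14 knockdown, Mettl3 knockdown (KD) and scramble libraries of both sets. Green marks coding and grey untranslated exon; the Wtap last exon has bars in the 2 scramble rows only, and the 4 knockdown bars in the Wtap 3′ UTR panel nearly coincide.

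Wtap (ENSMUSG00000060475, chr17:12966796-12994169, minus strand) had peaks at 3 places. The first was its last exon, exon 8 of the full-length transcript Wtap-201, which codes for 396 amino acids. Neither Mettl14 library and neither Mettl3 library had a listed peak there. The scramble peak of set 1 spanned chr17:12967381-12968223 with 223 tags, an enrichment of 6.02 and an FDR of 0.40% in the authors' deposited tables. That of set 2 spanned chr17:12967504-12968146 with 192 tags, an enrichment of 5.55 and an FDR of 3.76% in the authors' deposited tables. Enrichment here is the IP over control ratio that the peak caller gave.

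The scramble summits of this exon were 9 bases apart, 347 and 338 nt before the stop codon, inside the coding sequence. Both peaks were tag-rich but low in enrichment, since 6.29% and 3.79% of all scramble peaks had a lower enrichment. Tag counts of the knockdown libraries over this exon are not listed, so no fold change can be given. An absent call is not a measured zero.

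The second Wtap place was listed in all 6 libraries. Its knockdown peaks and the scramble peak of set 2 lie in the 3′ UTR of the short isoforms Wtap-204 and Wtap-205. These isoforms read past the end of exon 6 and code for 151 amino acids. In the full-length Wtap-201 the same bases are intron. The scramble peak of set 1 also took in exon 6, which in Wtap-201 is a coding exon of 179 nt. The scaled enrichment in the authors' deposited tables was 42.2 and 35.0 in the Mettl14 libraries of sets 1 and 2, 22.1 and 14.5 in the Mettl3 libraries, and 9.86 and 22.1 in the scramble libraries. Scaled enrichment is the enrichment times 1 constant per knockdown library, and scramble enrichments are unscaled. Both Mettl14 libraries stood above both scramble libraries, while Mettl3 set 1 stood level with the higher scramble library and Mettl3 set 2 between the scramble libraries.

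In the authors' deposited tables, Mettl14 knockdown had log2 changes over scramble of 2.10 in set 1 and 0.66 in set 2 at this place. Mettl3 knockdown had 1.17 in set 1 and -0.61 in set 2 there, again from the deposited tables of the authors. Over the libraries, Mettl14 knockdown was at 5.26 ± 0.19 and scramble at 3.88 ± 0.82 on the log2 scale (SD, n = 2 each), a difference of 1.38. The two-sided exact permutation p was 0.333, the smallest that 2 against 2 allows, and 0.876 after Benjamini-Hochberg adjustment over the 2258 places listed in all 6 libraries. Of these places 4.12% had both Mettl14 libraries above both scramble libraries. For Mettl3 the difference was 0.28, with an exact permutation p of 0.667, and all 4 knockdown libraries together gave 0.83 and an exact permutation p of 0.2. The size of that difference rested on set 1, since it was 0.03 without set 1 and 1.63 without set 2. Without the scaling constants all 4 knockdown libraries stood above both scramble libraries, but Mettl3 set 1 barely so, at 22.08 against 22.06 in scramble set 2. The difference was then 1.14, with an exact permutation p of 0.133, and 0.738 after Benjamini-Hochberg adjustment. The share of all 2258 places with this order was not counted without the constants.

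All 4 knockdown peaks were narrower than their scramble peak, that of Mettl3 set 2, with its negative change, included. They were 240 and 220 nt wide with Mettl14 knockdown and 240 and 238 nt with Mettl3 knockdown, against 949 and 356 nt in scramble. They rested on 37, 34, 48 and 24 tags. The scramble peak of set 1 took in the stop codon of the short isoforms, while that of set 2 and every knockdown peak started after it. The knockdown summits lay 515 to 523 nt after that stop codon. The part of peak width in the enrichment was not tested.

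The third Wtap place was new in a single library, Mettl3 set 1. In the authors' deposited table it covered the first, untranslated exon (chr17:12992064-12992259) with 14 tags, an enrichment of 76.15 and an FDR of 8.35%. It held no GGAC, and it was listed in no other library. Its enrichment was the highest of any peak of the 5 genes, and its tag count the lowest.

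**Figure D3:**
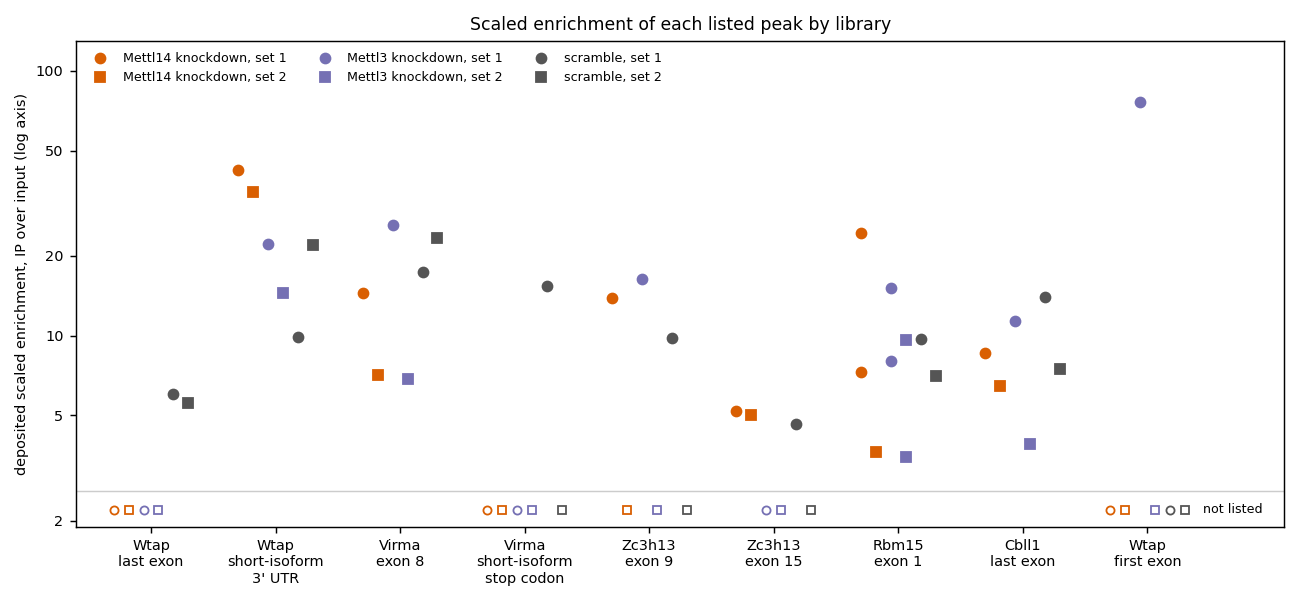
Scaled enrichment of each listed peak (y axis, log scale) at the 9 places (x axis), with circles for set 1 and squares for set 2, and open symbols at the foot for libraries with no listed peak. The Mettl14 knockdown libraries lie above both scramble libraries at the Wtap 3′ UTR (42.2 and 35.0, against 9.86 and 22.1), and the Cbll1 values overlap.

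Virma (ENSMUSG00000040720, chr4:11485958-11550684, plus strand) had its main peak in exon 8, a coding exon of 1141 nt. In set 1 the scaled enrichment was 14.6 in the Mettl14 library and 26.1 in the Mettl3 library, against 17.3 in the scramble library, in the authors' deposited tables. The log2 changes there were -0.25 with Mettl14 knockdown and 0.59 with Mettl3 knockdown. The knockdowns stood on opposite sides of the scramble library they share.

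In set 2 the call moved along the exon. The Mettl14 peak at chr4:11513660-11514046 had 56 tags, and the Mettl3 peak at chr4:11513668-11514023 had 43 tags, and both were new in the authors' deposited tables. The scramble peak had 48 tags, an enrichment of 23.4 and an FDR of 6.87% in the authors' deposited tables. It covered the 5′ part of the exon (chr4:11513124-11513595) and was lost with both knockdowns. The knockdown peaks began 64 and 72 nt past the end of the scramble peak, in the 3′ part of the exon where the peaks of all 3 libraries of set 1 overlapped. Their scaled enrichments were 7.08 and 6.85 in the authors' deposited tables, with FDRs of 9.49% and 8.26%, close to the highest FDR listed, 9.99%. The lost call and the new calls of set 2 thus share no base.

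A second Virma place was listed only in the scramble library of set 1 (chr4:11526604-11527308). It had 90 tags, an enrichment of 15.45 and an FDR of 0.21% in the authors' deposited tables, and it was lost with both knockdowns of that set. It covers the last coding stretch of Virma-201, a transcript of 1139 codons that ends in exon 13, and its summit lay 30 nt before that stop codon. In Virma-202, with 1811 codons, the same bases up to position 11527139 are an internal exon of 545 nt. The scramble library of set 2 had no peak there, so the loss has no second set to be set against.

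Zc3h13 (ENSMUSG00000022000, chr14:75284373-75344426, plus strand) had 2 coding-sequence peaks. At exon 9, of 308 nt, the scaled enrichment was 13.9 in the Mettl14 library and 16.4 in the Mettl3 library, against 9.81 in the scramble library of set 1, in the authors' deposited tables. The log2 changes were 0.50 and 0.74 in the authors' deposited tables. Both knockdown peaks had the same ends and a width of 297 nt, against 407 nt in scramble, and their summits stood 1 base apart, 34 to 35 nt after a GGACT. None of the 3 libraries of set 2 had a peak at this exon.

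At exon 15 the Zc3h13 peaks filled the exon of 513 nt and ran on into the intron. The scaled enrichment was 5.19 and 5.00 in the Mettl14 libraries of sets 1 and 2, with 119 and 116 tags, and 4.64 in the scramble library of set 1, with 163 tags, in the authors' deposited tables. The Mettl14 peak was shared in set 1, with a log2 change of 0.16, and new in set 2. No Mettl3 library had a listed peak there, so the place was lost in Mettl3 set 1. The scramble peak stood at an FDR of 9.94%, just inside the highest FDR listed, and its enrichment was above that of 2.13% of scramble peaks.

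Rbm15 (ENSMUSG00000048109, chr3:107325421-107333673, minus strand) had one of the widest peaks in the data. It covered most of exon 1, which holds 2866 nt of coding sequence. In Mettl14 set 1, Mettl3 set 1 and Mettl3 set 2 the peak was called as a pair of pieces with gaps of 22, 7 and 17 nt. Of all shared scramble peaks, 4.94%, 4.65% and 5.28% in these tables were matched by more than 1 knockdown peak. Mettl14 set 2, where that share was 3.77%, had a single peak of 3123 nt. The scramble peaks were 3215 and 3272 nt wide, wider than 99.7% and 99.5% of scramble peaks, with enrichments of 9.75 and 7.02 in the authors' deposited tables.

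The 2 pieces of Rbm15 had changes of opposite sign. The short 3′ piece of 549, 577 and 635 nt had log2 changes of 1.33 in Mettl14 set 1, 0.64 in Mettl3 set 1 and 0.45 in Mettl3 set 2 in the authors' deposited tables. The long piece had -0.42, -0.28 and -1.02 in the authors' deposited tables, and the unsplit Mettl14 peak of set 2 had -0.95. Every one of these values is set against the whole scramble peak, so both pieces are compared with the same single enrichment. The tag density was alike in both pieces, at 21.7 to 24.3 tags per 100 nt in the short and 21.6 to 24.5 in the long one.

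Taking the piece with the larger overlap, Rbm15 was at 2.36 ± 0.72 with Mettl14 knockdown, 2.40 ± 0.85 with Mettl3 knockdown and 3.05 ± 0.34 in scramble (log2 scaled enrichment, SD, n = 2 each). The differences of -0.68 and -0.65 had exact permutation p-values of 0.667 each. All 4 knockdown libraries against both scramble libraries gave -0.67 and an exact permutation p of 0.267, where the smallest possible is 0.0667. The median difference over all 2258 places was -0.33.

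Cbll1 (ENSMUSG00000020659, chr12:31484829-31499616, minus strand) had a single peak, in its last exon, listed in all 6 libraries. Its scaled enrichment in the authors' deposited tables was 8.64 and 6.43 in the Mettl14 libraries, 11.3 and 3.91 in the Mettl3 libraries, and 13.97 and 7.47 in the scramble libraries. Within each set both knockdown libraries were below their scramble library, but the groups overlapped across sets. In the authors' deposited tables the log2 changes for sets 1 and 2 were -0.69 and -0.22 after Mettl14 knockdown, and -0.30 and -0.93 after that of Mettl3. Of the 3 places whose peaks overlapped in all 6 libraries, Cbll1 was lower in all 4 tables, and so was Rbm15 by its longer call, where 25.8% of all 2258 such places were. The Cbll1 set 2 value with Mettl14 knockdown turned to 0.15 without the scaling constant.

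For Cbll1 the log2 difference from scramble was -0.45 with Mettl14 knockdown and -0.62 with Mettl3 knockdown, with exact permutation p-values of 0.667 each. All 4 knockdown libraries gave -0.54 and an exact permutation p of 0.4. Of these 3 places, 1 had both Mettl14 libraries above both scramble libraries, and 0 had every Mettl3 library or every knockdown library above them, where 1.55% and 0.753% of all 2258 places did. In 0 of 3 did every library of a comparison lie below both scramble libraries, where 33.9%, 20.9% and 13.8% of all places did for Mettl14, Mettl3 and both. None of the 9 tests at Wtap, Rbm15 and Cbll1 passed 0.05, which so few libraries cannot reach, and the adjusted exact permutation p-values ran from 0.876 to 1. The Cbll1 summits lay 310 to 388 nt before the stop codon, in coding sequence, as did the Wtap summits of the last exon. The Cbll1 peak was 690 and 910 nt wide with Mettl14 knockdown and 1020 and 910 nt with Mettl3 knockdown, against 1156 and 886 nt in scramble.

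With the deposited scaling the shared peaks of the 5 genes came to 10 higher and 10 lower pairs over the 4 tables. The short Rbm15 pieces are among the higher pairs and its longer calls among the lower ones. The shares of all pairs are given table by table. With Mettl14 knockdown 3 of 7 pairs were lower in set 1 and 2 of 3 in set 2, where 54.6% and 84.8% of all shared pairs were lower and 45.4% and 15.2% higher. With Mettl3 knockdown 2 of 6 and 3 of 4 were lower, where 35.2% and 93.0% of all were lower and 64.8% and 7.04% higher. The median log2 changes of the pairs were 0.16 and -0.22 with Mettl14 knockdown, against -0.06 and -0.59 over all shared pairs. With Mettl3 knockdown they were 0.61 and -0.77, against 0.22 and -0.91 over all. The constants by which the authors scaled the knockdown enrichments were 0.906 and 0.777 for Mettl14 and 1.00 and 0.609 for Mettl3. Without them the median of all pairs in set 2 moved to -0.23 with Mettl14 knockdown and -0.20 with Mettl3 knockdown. Of the pairs of the 5 genes, 3 of 7 and 1 of 3 were then lower with Mettl14 knockdown. With Mettl3 knockdown 2 of 6 and 2 of 4 were. No share of all pairs lower is given without the constants.

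**Figure D4:**
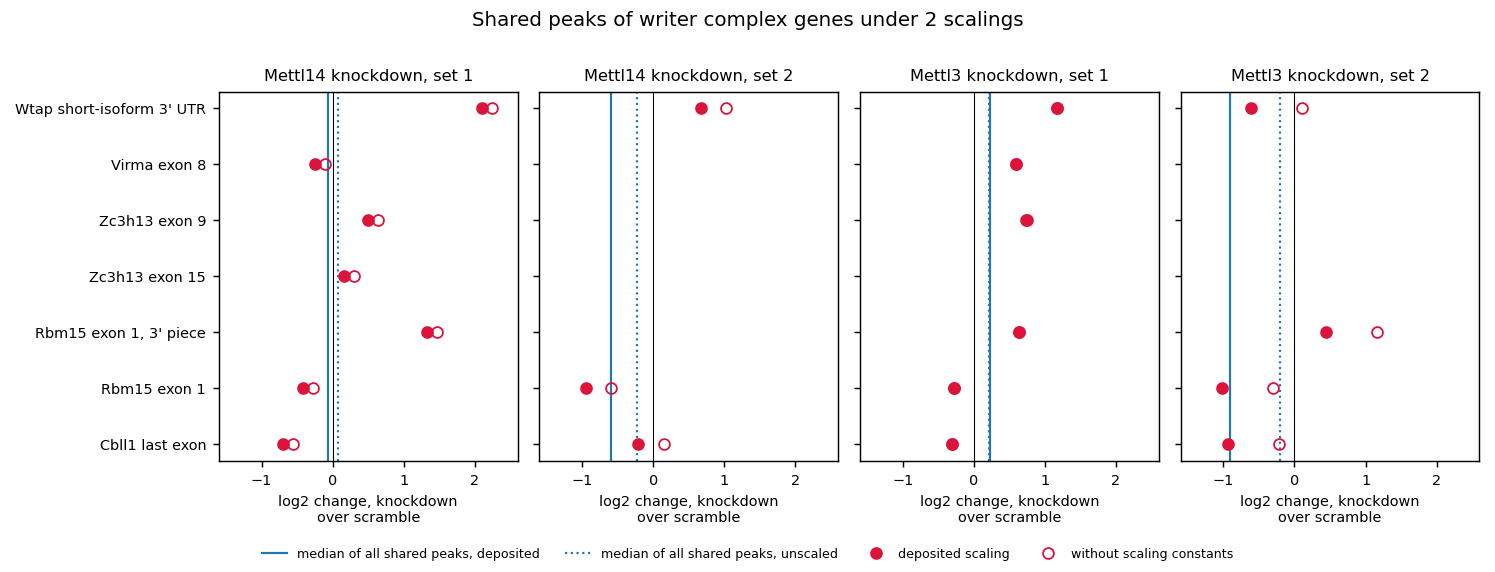
Log2 change of each shared peak (x axis) in the 4 tables, with the deposited scaling (filled) and without the scaling constants (open), beside the median of all shared peaks (solid line deposited, dotted line unscaled). The short 3′ piece of Rbm15 lies right of 0 in the 3 tables that have it and the longer call left of 0 in all 4, while Cbll1 in Mettl14 set 2 and the Wtap 3′ UTR in Mettl3 set 2 change sides.

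Among these 20 pairs the higher ones were narrower at the median. The 10 higher pairs had knockdown peaks at 17.1% to 99.8% of the scramble width, with a median of 43.5%, and 9 were under 75%. They include the short Rbm15 pieces, at 17.1% to 19.4%, each a part of a split call set against the whole scramble peak. The 10 lower pairs ran from 59.7% to 106% with a median of 84.3%, and 4 were under 75%. Over all shared pairs the median width was 85.4%, 82.9%, 86.6% and 64.3% for higher peaks and 88.4%, 92.7%, 88.1% and 87.8% for lower peaks, in the order Mettl14 sets 1 and 2 and Mettl3 sets 1 and 2. The pairs share scramble peaks and places, so these are descriptions with no test.

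**Figure D5:**
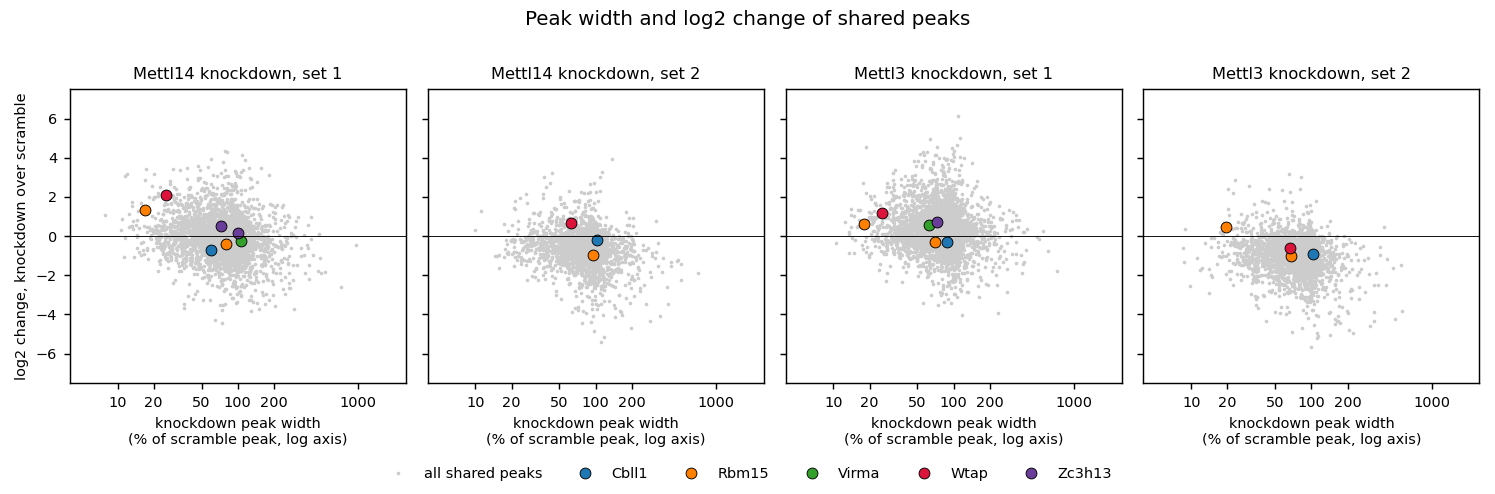
Width of each shared knockdown peak as a percentage of its scramble peak (x axis, log scale) against its log2 change (y axis) in the 4 tables, with all shared peaks in grey and the writer complex genes in colour. The short Rbm15 pieces (17.1% to 19.4% of the scramble width) and the Wtap 3′ UTR peaks of set 1 (25.3%) lie at the upper left of the coloured points.

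Of 28 other genes of the m6A machinery in 6 lists, 12 had a listed peak. A gene counted as lower where every listed peak was either lost or below 0 in log2 change, and as higher where every one was either new or above 0. With Mettl14 knockdown 3 of 11 listed genes were lower and 6 higher in set 1, where 57.8% of all genes were lower and 27.4% higher. In set 2, 10 of 10 were lower and 0 higher, where 70.5% and 19.8% of all genes were. With Mettl3 knockdown 3 of 12 were lower and 7 higher in set 1 (all genes 49.6% and 34.7%), and 10 of 11 lower and 1 higher in set 2 (all genes 75.6% and 16.0%). Without the scaling constants the set 2 counts were 7 lower and 3 higher with Mettl14 knockdown and 5 lower and 5 higher with Mettl3 knockdown. The shares of all genes given above are for the scaled calls, and no such share is given without the constants.

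The nearest relative of the 5 genes, Rbm15b, a paralog of Rbm15 that also serves as an RNA-binding adaptor, was higher in both tables of set 1 and lower in both of set 2. Its log2 changes in the authors' deposited tables were 0.28 and -0.65 with Mettl14 knockdown and 0.47 in Mettl3 set 1. In Mettl3 set 2 its single long peak was called in 2 pieces, with -0.80 and -0.58 in the authors' deposited table, and the second turned to 0.13 without the scaling constant. Fto and Alkbh5, the demethylases that remove m6A, were lower in each of the 4 tables. They were 2 of the 10 machinery genes listed in all 4 tables, and 25.0% of all 3672 genes so listed were lower in each. The Fto peak was lost in Mettl14 set 1 and Mettl3 set 2 and had -0.19 in Mettl14 set 2 and -0.24 in Mettl3 set 1 in the authors' deposited tables. The Alkbh5 peak was lost in 3 of them and had -0.56 in Mettl3 set 2 in the authors' deposited table. Without the scaling constants Fto turned to 0.18 in Mettl14 set 2 and Alkbh5 to 0.16 in Mettl3 set 2.

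Among the YTH readers, which bind m6A, Ythdc1 was lower in both sets with Mettl14 knockdown and Ythdf3 in both sets with Mettl3 knockdown. The Ythdc1 peak listed in both sets had -0.41 and -1.13 with Mettl14 knockdown, and the Ythdf3 peak had -0.45 and -0.66 in the Mettl3 libraries, in the authors' deposited tables. Of all genes listed in both sets, 41.7% were lower in both with Mettl14 knockdown and 33.5% with Mettl3 knockdown. Without the scaling constant the set 2 value of Ythdf3 was 0.06. Mat2a, which makes the methyl donor S-adenosylmethionine, was the gene counted as higher in both sets with Mettl3 knockdown, 1 of 11 machinery genes listed in both, where 5.82% of all genes were. Its peak was new in Mettl14 set 1, Mettl3 set 1 and Mettl3 set 2, with 211, 189 and 171 tags in the authors' deposited tables, and no scramble library listed it.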

How the data were processed

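The authors deposited 4 peak tables, 1 for each knockdown in each of 2 sets. Per the file headers, each peak has a tag count in its own library, a fold enrichment ratio of IP over that library's control, an FDR in percent and a MACS score of minus 10 times log10 of the p-value. Per the file headers, the scaled enrichment ratio multiplies knockdown enrichments by 1 constant per table, and a signed score gives the knockdown over scramble fold of shared peaks, turned here into log2. Per the submitters' processing notes, the build was mm10 and the tools were TopHat2 2.0.6, Bowtie 0.12.7, Picard 1.74, SAMtools 0.1.18, CASAVA 1.8.2 and cutadapt 1.1. The sources used here give neither the MACS version nor the basis of the constants. Library depth is unknown, so no interval on depth is given, and tags per listed peak ran from 4 to 2151. The 6 samples without antibody have no columns of their own here and were not analysed.

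Peaks were followed between tables by an overlap of at least 1 nt on the same strand, and overlapping calls were joined to places. Peak positions were set on GENCODE M21 with Python 3.11.15, pandas 2.3.3 and SciPy 1.17.1, and motifs were searched with 10 nt of flank printed. Places with a peak in all 6 libraries were compared by exact permutation of libraries with Benjamini-Hochberg adjustment over 2258 places. The peaks of Virma exon 8 do not all overlap one another and were left out of that test. With several knockdown peaks on a scramble peak, the test used the one with the larger overlap. All 5 genes and each of their peaks are named, and another machinery gene is named where it was lower or higher in all 4 tables or in both sets of 1 knockdown; Rbm15b was added as a paralog. The members and gene lists were chosen with earlier results of these data known. The code was tested on simulated data.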

Additional observations from a re-analysis of the deposited data

How the results depend on the processing

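The tables carry no replicate number that could be matched to the labels, so the set, whose libraries share a scramble library, served as the replicate block, an alternative chosen after seeing the data. With libraries permuted within each set only, the differences stay the same by construction. For both knockdowns the exact permutation p was 0.111 for Rbm15 (-0.67), the smallest this design gives, 0.222 for Cbll1 (-0.54) and 0.333 for the Wtap 3′ UTR (0.83). After Benjamini-Hochberg adjustment over all places these were 0.572, 0.714 and 0.777. The Rbm15 value uses its longer call. Its short piece, at 1.33 in Mettl14 set 1 and 0.64 and 0.45 in Mettl3 sets 1 and 2, was left out. All within-set differences lay below 0 at 25.8% of all places. For Mettl14 or Mettl3 alone the exact permutation p was 0.5, again the smallest, except 1 for the Wtap 3′ UTR with Mettl3 knockdown. A ratio of tag counts could not be run, since scramble tag counts are not listed for shared peaks. At an FDR of at most 5%, 1 member peak was lost in set 2 with either knockdown. At an FDR of at most 1%, 1 was lost in Mettl3 set 2, and the number of places lost in both sets was 0 for each knockdown, because the scramble peak of Wtap's last exon in set 2 is above that limit. The places then lost in set 2 were the Wtap 3′ UTR with both knockdowns and Cbll1 with Mettl14 knockdown. Zc3h13 exon 9 was added in Mettl14 set 1. The knockdown peaks of these places are above that limit. The FDR of their scramble peaks is not listed, so the limit could be applied to the knockdown side only, and these losses follow from that filter. The share of all peaks lost at either limit is not given. With an overlap of at least 50% of both peaks, the Wtap 3′ UTR peak of set 1 also counted as lost with both knockdowns. No share of all scramble peaks lost is given for that rule. With a single set, the places lost numbered 2 with Mettl14 knockdown and 2 to 3 with Mettl3 knockdown. Without the scaling constants, or with the median of all shared peaks set to 0, 1 of 3 pairs was lower in Mettl14 set 2. In Mettl3 set 2, 2 of 4 were lower with either setting. With the median at 0 all pairs divide evenly by construction, and no share of all pairs is given without the constants. Cbll1 in Mettl14 set 2 changed sign to 0.15 and 0.38, and the Wtap 3′ UTR in Mettl3 set 2 to 0.11 and 0.31. Leaving out set 1 or set 2, the Wtap 3′ UTR difference with Mettl3 knockdown was -0.61 or 1.17. Over whole peaks GGACT stood in 6 and GGAC in 8 of the 8 set 1 peaks, where 65.1% and 94.5% of all scramble peaks held them. GGACT stood in 3 and GGAC in 5 of the 5 set 2 peaks, where 68.3% and 96.3% of all held them. A 100 nt window held GGACT in 2 of the 8 set 1 peaks, where 19.4% of all had it. It held GGACT in 0 of the set 2 peaks, where 17.5% of all had it. Without the constants, other machinery genes were 3 higher in Mettl14 set 2, and 5 lower and 5 higher in Mettl3 set 2, with no share of all genes given for that setting. No alternative took a permutation test past 0.05, which the number of libraries does not allow.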
